A study of Xenopus tropicalis with 15 samples.

Results

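The genes described here are the Nodal ligands of Xenopus tropicalis with their antagonist lefty, the related ligand gdf3 and the Cripto-type co-receptors. They were chosen by name, as every gene in the count table whose symbol starts with nodal, lefty, gdf3 or tdgf1, which gave 13 of 28206 genes. Of these, 10 had enough reads to be tested and 3 (nodal3.2, nodal5 and nodal5.2) did not. The libraries came from whole gastrulae (stage 11 to 11.5) of the out-bred Nigerian wild-type strain, with 5 libraries of LiCl-treated, 5 of UV-treated and 5 of untreated embryos, each from 10 pooled embryos. LiCl-treated embryos were placed in 0.3 M LiCl at the 32-cell stage, UV-treated embryos were irradiated for 2 min within the first 30 min after fertilisation, and all groups were reared at 25 °C. LiCl inhibits GSK3 and so stabilises β-catenin, which enlarges dorsal fates, while UV light on the vegetal side of the fertilised egg blocks the movement of dorsal determinants, which leaves embryos ventralised. The question was which transcripts differ between these conditions, and clutches were kept for RNA only where the treatments gave a high share of affected embryos, so the libraries stand for strong responses.

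Nodal ligands are secreted proteins of the TGF-β family that pattern mesoderm and endoderm in the vertebrate gastrula. They bind activin-type receptors together with a co-receptor of the Cripto family and act through SMAD proteins and FoxH1, switching on genes such as mixer, gsc and eomes. Among their targets is lefty itself, whose secreted product blocks Nodal signalling and so limits its range. The frog has several nodal genes: in Xenopus laevis, nodal5 and nodal6 are activated in vegetal cells of the blastula, nodal1 and nodal2 follow in the vegetal and marginal cells, and nodal3 is a direct target of maternal β-catenin in the early organiser, whose product does not induce mesoderm as the others do.

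Total counts per library ran from 8412818 to 17737546 in LiCl-treated, from 11890416 to 18254396 in UV-treated and from 11002771 to 18455126 in untreated libraries. Values are given as CPM (counts scaled to a fixed total of reads, on library sizes scaled by the TMM method) or as counts where these are low. The marker lists were chosen with earlier results of these data known. They hold genes that the study reports from these same libraries, so they are no independent check of the labels. The summed level of 15 organiser genes downstream of maternal β-catenin was 3917 to 4667 CPM in LiCl-treated, 401 to 1067 CPM in UV-treated and 1695 to 2249 CPM in untreated libraries. That of 13 ventral genes was 1342 to 3260 CPM in LiCl-treated, 3838 to 7177 CPM in UV-treated and 3184 to 4826 CPM in untreated libraries. The ventral ranges of both treated groups overlapped the untreated range. The 12 gastrula markers were detected in every library. At a fold change of at least 2 and an FDR of at most 0.01, 3 were higher (gsc, chrd and eomes) and 2 lower (t and tfap2a) in LiCl than in UV. Of 11 genes of later stages 1 was higher (neurog3) and 1 lower (neurog2) in the same comparison. Both counts stand beside 6.10% of all genes tested. Against untreated embryos the median log2 fold change of these later genes was -0.71 for LiCl, beside 0.01 over all genes tested. For UV this median was -1.28, beside -0.02. A part of developmental stage in the differences from untreated embryos was not tested. Replicate 4 of the LiCl-treated and of the untreated group stood apart within its group, with the least actc1 (cardiac actin of early muscle, 7.57 and 7.72 CPM) and the most mixer (an endoderm gene, 999 and 895 CPM) and sia1 (siamois, 37.3 and 3.31 CPM). Results for nodal2, nodal3.1, nodal6, tdgf1p3 and the nodal3.1 to nodal ratio are given with and without 1 or both of these 2 libraries. For nodal, nodal1, tdgf1, tdgf1p2 and lefty no fold change against untreated embryos is given without them. Replicate 4 was the highest or the lowest library of both groups for each of these genes.

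The nodal genes lie in separate places of assembly v7.1. Scaffold 3 holds nodal1 (5675592 to 5678167), nodal2 (5681218 to 5686088), nodal3.1 (5698572 to 5718957) and nodal3.2 (5703331 to 5705353), all on the minus strand within 43.4 kb. A second cluster on the same scaffold, 1.22 Mb further on, holds nodal6 (6941789 to 6943479, minus strand), nodal5.2 (6961449 to 6962996) and nodal5 (6974261 to 6975788) within 34.0 kb. The gene named nodal stands alone on scaffold 7 (43613340 to 43622064, plus strand). The 7 clustered models and nodal each have 3 exons. The model of nodal3.1 is unusual, since its first exon lies beyond nodal3.2, so that nodal3.2 sits inside its long intron on the same strand, together with an unnamed model, Xetrov72040882. No exon of the 13 genes overlaps an exon of another gene. The nodal copies resemble each other, and how reads that match several copies were handled is not given in the sources used here, so the split of counts among nodal3.1 and nodal3.2, or among nodal5, nodal5.2 and nodal6, is uncertain.

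**Figure D1:**
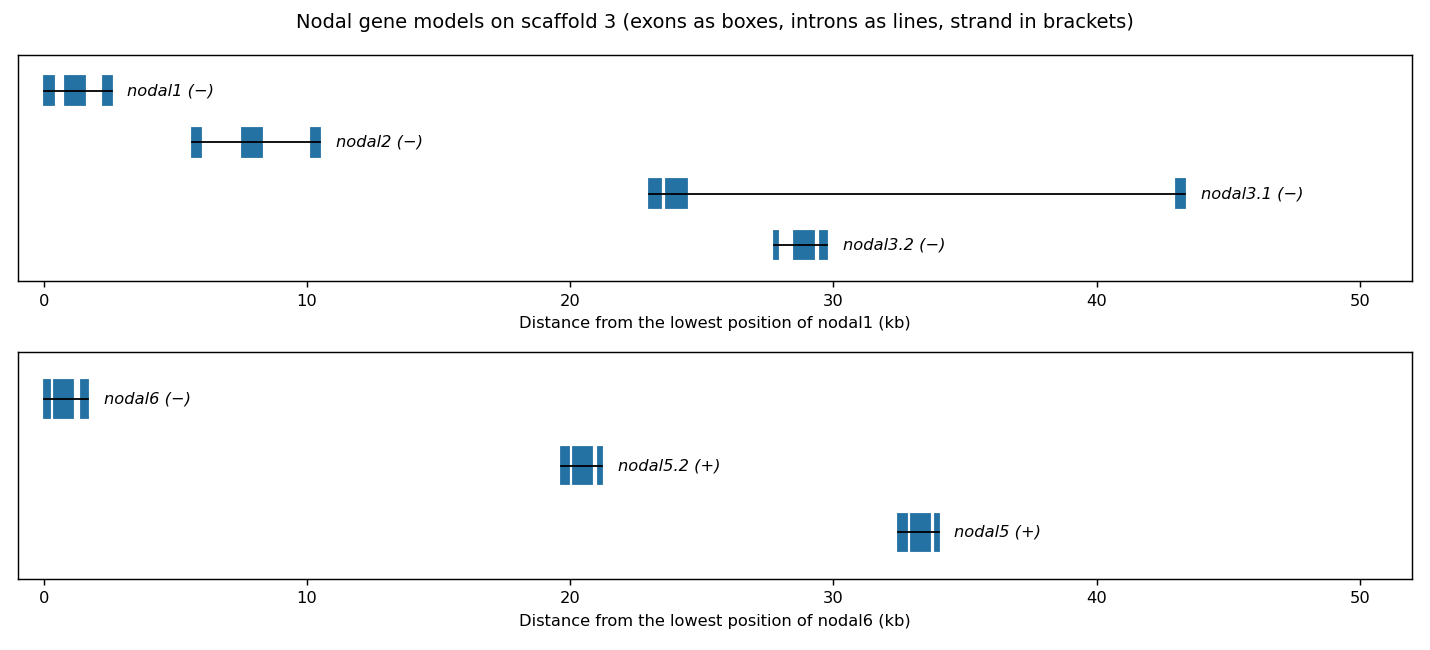
Gene models of the clustered nodal genes on scaffold 3, drawn to scale against the distance in kb from the lowest position of nodal1 (top) and of nodal6 (bottom). Boxes are exons, lines are introns and the strand stands in brackets. The 3 exons of nodal3.2 fall within the long intron of nodal3.1.

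The co-receptor genes lie together on scaffold 1, with tdgf1p3 (88243559 to 88254921), tdgf1p2 (88277563 to 88287064) and tdgf1 (88386384 to 88389129) on the plus strand within 145.6 kb. RefSeq lists tdgf1p3 and tdgf1p2 as other names of tdgf1.1 (XCR3) and tdgf1.2 (XCR2), and tdgf1 as another name of tdgf1.3 and of tdgf1.1. The gene gdf3, called derriere in earlier work, is also on scaffold 1 (129321117 to 129324767), and lefty is on scaffold 5 (117929166 to 117933125, minus strand). Per kb of exon, tdgf1 had the highest level of the 13 genes in LiCl-treated and untreated embryos, at 90.4 ± 27.1 and 60.2 ± 30.6 CPM per kb (SD, n = 5 each). In UV-treated embryos lefty came first, at 58.9 ± 22.6 CPM per kb, with tdgf1 next at 43.0 ± 15.4 CPM per kb (SD, n = 5 each), a gap within the larger SD. The lead of tdgf1 over lefty was likewise within the SD of tdgf1, with lefty at 75.6 ± 20.1 CPM per kb in LiCl-treated and 50.1 ± 18.4 CPM per kb in untreated embryos.

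Among the ligands, the order of levels per kb differed by condition. In LiCl-treated embryos nodal stood at 19.6 ± 5.81, nodal2 at 12.3 ± 6.90 and nodal1 at 11.8 ± 6.33 CPM per kb (SD, n = 5 each). In UV-treated embryos nodal2 stood at 17.2 ± 10.6 and nodal1 at 13.1 ± 7.71, both above nodal at 5.40 ± 2.85 CPM per kb. In untreated embryos nodal stood at 11.1 ± 1.08, above nodal1 at 5.28 ± 3.70 and nodal2 at 3.59 ± 3.29 CPM per kb. In no condition did nodal1 and nodal2 differ from each other by more than their SD. The level of nodal3.1 was 4.63 ± 6.51 CPM per kb in LiCl-treated embryos and under 1 CPM per kb in the other groups.

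The ligand gene nodal and the co-receptor genes tdgf1p2 and tdgf1p3 were higher in LiCl-treated than in UV-treated embryos, by 3.62-, 5.32- and 6.86-fold. With a threshold of a fold change of at least 2 and an FDR of at most 0.01 (edgeR quasi-likelihood test, Benjamini-Hochberg over 14041 genes), these 3 of the 10 genes tested passed, all higher in LiCl, while 6.10% of all genes tested passed in either direction and 3.55% passed as higher in LiCl. The other 7 did not pass, of which nodal3.1, tdgf1 and gdf3 had an FDR between 0.0174 and 0.0345. At an unadjusted p under 0.05, 6 of the 10 passed against 27.6% of all genes tested, and DESeq2 called 5 of the 10, adding nodal3.1 and tdgf1, against 9.48% of all genes tested. The place of nodal3.1 in such counts, here and below, was favoured by the filter on low counts. Its reads were mostly in LiCl-treated libraries, and it fell below that filter in the fit of UV-treated and untreated libraries alone. In bulk samples such as these, fewer cells expressing a gene and less RNA per cell cannot be told apart.

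**Figure D2:**
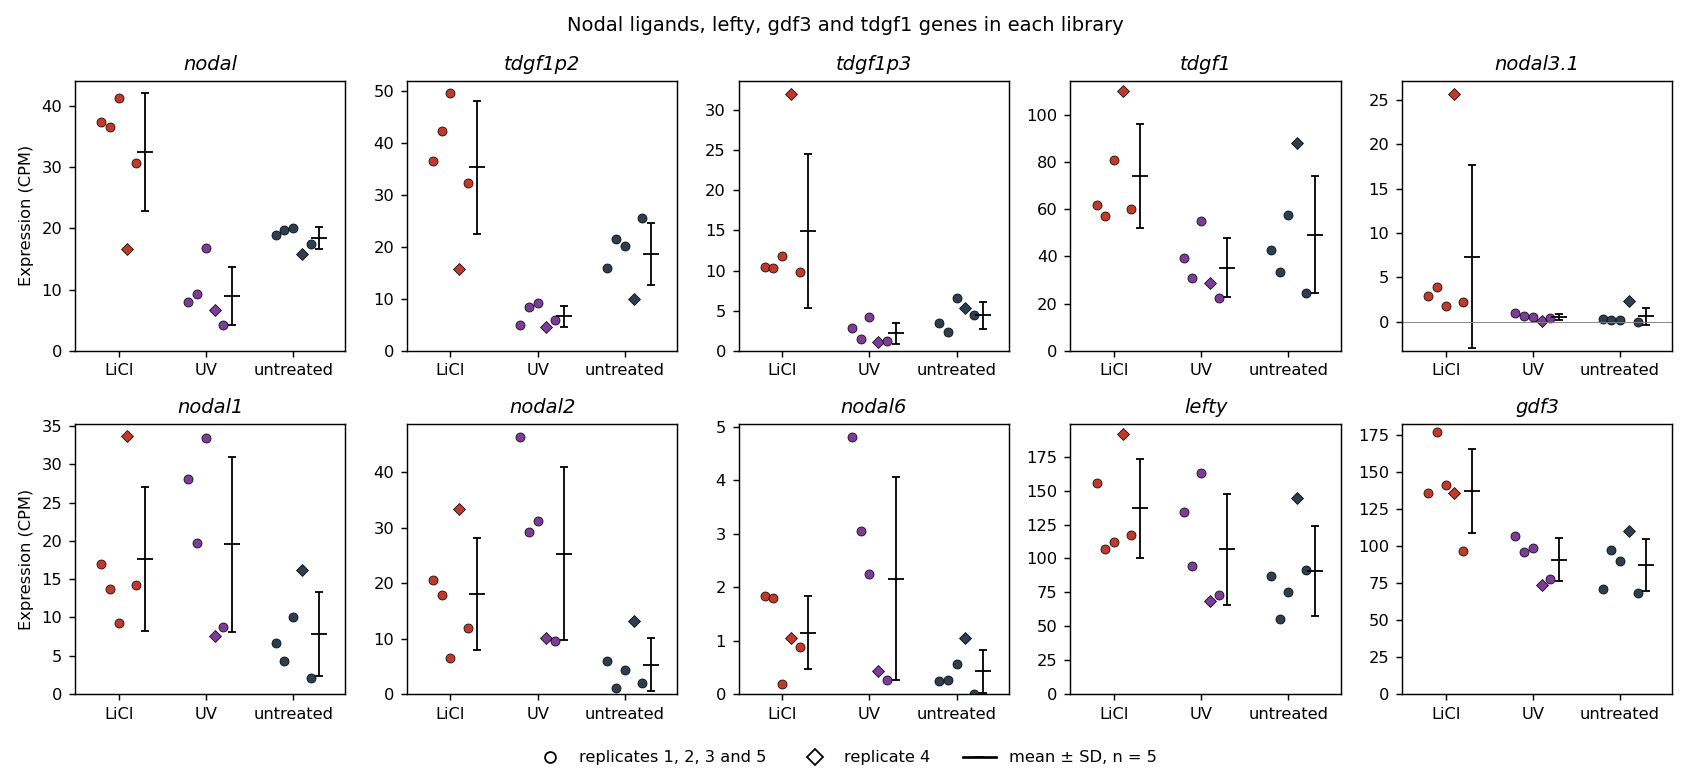
Expression in CPM (vertical axis, linear, a separate scale for each gene) of the 10 genes tested in the LiCl-treated, UV-treated and untreated libraries. Points are libraries, diamonds mark replicate 4, and bars give the mean and SD of 5 libraries. For tdgf1p2 and tdgf1p3 every LiCl-treated library lies above every UV-treated one. For nodal3.1 the diamond of the LiCl-treated group, at 25.7 CPM, stands far above the other 14 libraries.

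For nodal, the LiCl-treated libraries 1 to 5 had 37.5, 36.6, 41.3, 16.7 and 30.7 CPM. UV-treated libraries had 7.90, 9.30, 16.7, 6.60 and 4.25 CPM, and untreated libraries 18.9, 19.7, 20.1, 15.8 and 17.5 CPM. Thus 4 of 5 LiCl-treated libraries lay above every other library, and LiCl-treated replicate 4 fell among the untreated ones and just below the highest UV-treated library, replicate 3. The untreated libraries were tightly grouped, with a coefficient of variation of 9.70%, the lowest of any of the 10 genes in any group. The log2 fold change was 1.85 ± 0.31 for LiCl against UV (SE, edgeR FDR 0.000866). Against untreated embryos it was 0.82 ± 0.30 for LiCl (FDR 0.0857) and -1.03 ± 0.31 for UV (FDR 0.170), neither past the threshold. The LiCl-treated library was the higher in 5 of 5 same-numbered pairs, a count for which no share over all genes was taken. Of the UV-treated libraries only replicate 3 (16.7 CPM) lay above any untreated one (replicate 4, 15.8 CPM). The LiCl against UV call was lost when the fold change itself was tested against 2 (glmTreat, FDR 0.0426), and held in all 15 fits that left out 1 library.

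For tdgf1p2, a co-receptor gene, the LiCl-treated libraries had 36.4, 42.2, 49.6, 15.7 and 32.2 CPM. UV-treated libraries had 5.02, 8.34, 9.20, 4.60 and 5.90 CPM, and untreated libraries 15.9, 21.4, 20.04, 9.87 and 25.6 CPM. No UV-treated library reached the lowest LiCl-treated or the lowest untreated library, while LiCl-treated replicate 4 lay within the untreated range. Its log2 fold change was 2.41 ± 0.32 for LiCl against UV (SE, edgeR FDR 0.000169), the smallest FDR of the 10 genes in that comparison. It was -1.49 ± 0.32 for UV against untreated (FDR 0.0456) and 0.93 ± 0.31 for LiCl against untreated (FDR 0.0581), neither past the threshold. DESeq2 called the UV difference (adjusted p 0.000809).

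For tdgf1p3, another co-receptor gene, the LiCl-treated libraries had 10.5, 10.3, 11.9, 32.1 and 9.83 CPM. UV-treated libraries had 2.82, 1.44, 4.23, 1.03 and 1.22 CPM, and untreated libraries 3.48, 2.28, 6.56, 5.36 and 4.43 CPM. Every LiCl-treated library lay above every UV-treated and every untreated one, and replicate 4 was the highest by a wide gap. UV-treated and untreated libraries overlapped. Its log2 fold change was 2.78 ± 0.47 for LiCl against UV (SE, edgeR FDR 0.000841) and, without LiCl-treated replicate 4, 2.28 (FDR 0.000959). A fit of the 10 LiCl- and UV-treated libraries with the replicate number as a block did not keep the call (FDR 0.0132). For LiCl against untreated the log2 fold change was 1.76 ± 0.44 (FDR 0.0169), and for UV against untreated -1.02 ± 0.45 (FDR 0.401). Leaving out 1 library at a time gave 1.26 to 1.93 for LiCl against untreated (FDR 0.0117 to 0.0469).

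The third co-receptor gene, tdgf1, moved less. The LiCl-treated libraries had 61.8, 57.4, 80.9, 110 and 60.1 CPM. UV-treated libraries had 39.2, 30.9, 54.9, 28.7 and 22.2 CPM, and untreated libraries 42.8, 33.3, 57.6, 88.3 and 24.5 CPM. Every LiCl-treated library was above every UV-treated one, while untreated libraries spread over both ranges. Relative to UV-treated embryos, LiCl gave a log2 fold change of 1.07 ± 0.32 (SE, edgeR FDR 0.0345), with 0.59 ± 0.32 for LiCl against untreated (FDR 0.263) and -0.49 ± 0.32 for UV against untreated (FDR 0.632). Groups did not overlap between LiCl and UV for 4 of the 10 genes (tdgf1, tdgf1p2, tdgf1p3 and nodal3.1), each higher in LiCl, against 6.32% of all genes tested. Of these, nodal3.1 was favoured by the filter on low counts, as stated above.

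**Figure D3:**
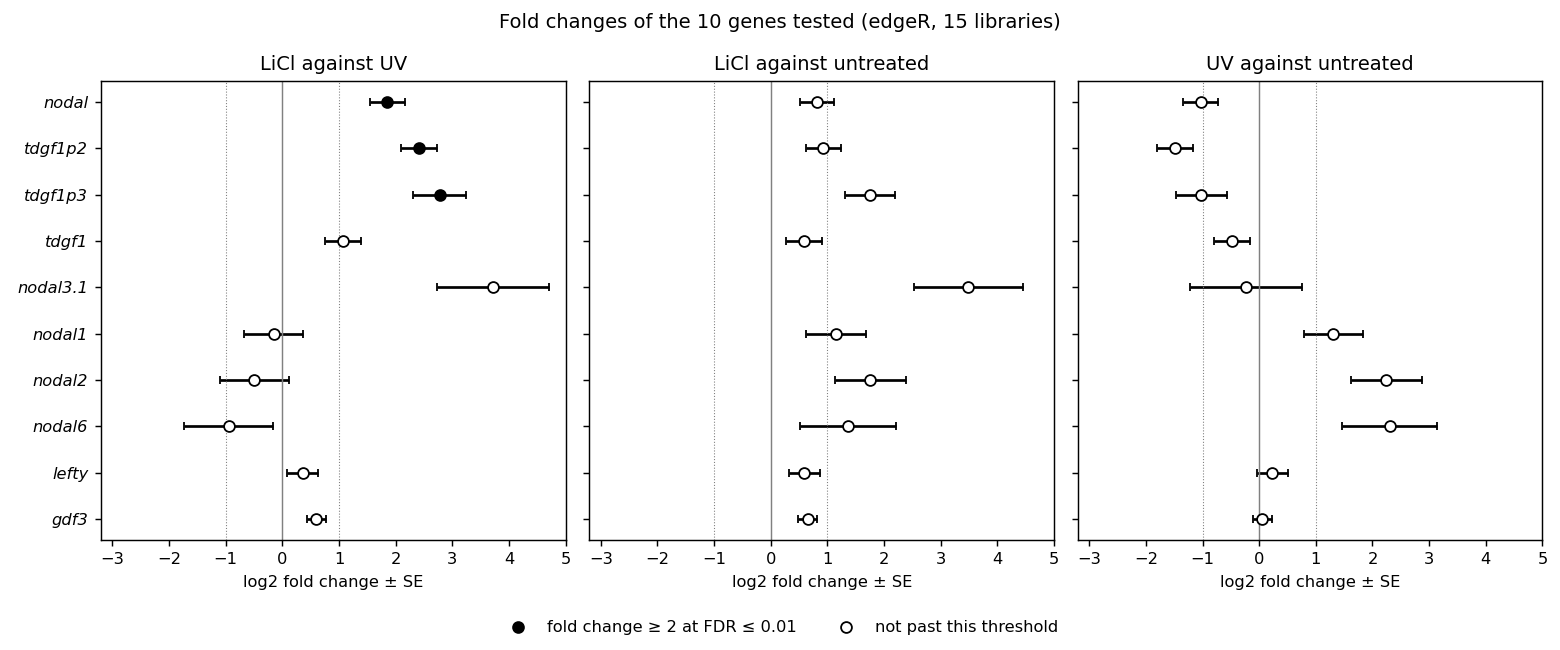
Log2 fold changes with SE (horizontal axis) of the 10 genes tested for LiCl against UV, LiCl against untreated and UV against untreated, from the edgeR fit of 15 libraries. Filled points passed a fold change of 2 at an FDR of 0.01, and dotted lines mark a fold change of 2. The filled points are nodal, tdgf1p2 and tdgf1p3 in the LiCl against UV panel.

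Against untreated embryos, none of the 10 genes passed the threshold in LiCl-treated embryos by the edgeR fit without a block, where 3.67% of all genes tested passed. At an unadjusted p under 0.05 the count was 8 of 10, against 27.1% of all genes tested in either direction. All 8 were higher in LiCl, and no share for that direction alone is given here. These genes share the same libraries and are not independent of each other. DESeq2 called 2 (nodal3.1 and tdgf1p3), against 6.88% of all genes tested. Groups did not overlap for 1 gene, tdgf1p3, which was higher in LiCl, against 4.23% of all genes tested. Replicate numbers were taken to pair the LiCl-treated and untreated libraries, although LiCl-treated replicate 3 was most like untreated replicate 2. A shared clutch is not stated. With the number as a block in a fit of these 10 libraries, nodal3.1 (log2 fold change 3.69 ± 0.38, FDR 0.000268) and tdgf1p3 (1.67 ± 0.26, FDR 0.00216) passed, against 6.69% of all genes tested. In the same blocked fit nodal, tdgf1p2, tdgf1, lefty and gdf3 had an FDR between 0.00255 and 0.00751 with fold changes under 2.

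In UV-treated embryos none of the 10 genes passed against untreated embryos by the edgeR fit without a block, where 0.0712% of all genes tested (10 of 14041) passed. At an unadjusted p under 0.05 the count was 6 of 10, against 11.5% of all genes tested. These were nodal, tdgf1p2 and tdgf1p3, lower in UV, and nodal1, nodal2 and nodal6, higher in UV. Of these, nodal6 fell below the filter on low counts in the fit of UV-treated and untreated libraries alone. Its place in this count thus depended on the LiCl-treated libraries, as did that of nodal3.1 among the genes tested. DESeq2 called 1, tdgf1p2, against 0.869% of all genes tested. It was also the 1 gene whose groups did not overlap, lower in UV, against 2.19% of all genes tested.

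The genes nodal1, nodal2 and nodal6, which encode mesoderm-inducing ligands, showed another order of groups, with the lowest means in untreated and the highest in UV-treated embryos. Their differences between LiCl and UV had an edgeR FDR of 0.507 to 0.902. Untreated means were also the lowest for lefty and gdf3, where the LiCl-treated means were the highest. For nodal2 the LiCl-treated libraries had 20.6, 17.8, 6.53, 33.4 and 11.9 CPM. UV-treated libraries had 46.4, 29.3, 31.2, 10.0 and 9.55 CPM, and untreated libraries 5.88, 1.11, 4.31, 13.2 and 1.89 CPM. Every library of both treated groups lay above 4 of the 5 untreated ones, and untreated replicate 4 lay inside both treated ranges. Differences on the log2 scale were 1.76 ± 0.63 for LiCl against untreated (SE, edgeR FDR 0.0755) and 2.25 ± 0.63 for UV against untreated (FDR 0.147), which share the untreated libraries. Without untreated replicate 4 these were 2.44 (FDR 0.0148) and 2.94 (FDR 0.0410). For LiCl against UV it was -0.49 ± 0.60 (FDR 0.678).

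For nodal1 the LiCl-treated libraries had 16.99, 13.7, 9.29, 33.7 and 14.3 CPM. UV-treated libraries had 28.1, 19.7, 33.5, 7.62 and 8.77 CPM, and untreated libraries 6.60, 4.37, 10.0, 16.2 and 2.11 CPM. All groups overlapped, and UV-treated libraries split into replicates 1 to 3, which were high, and replicates 4 and 5, which were low. This split was not particular to nodal1, since UV-treated replicates 4 and 5 lay below replicates 1 to 3 in 9 of the 10 genes tested (the exception was tdgf1p2). No share over all genes was taken for this count, and the 10 genes are not independent of each other. The organiser gene gsc had 12.9, 22.3 and 40.0 CPM in replicates 1 to 3 and 2.602 and 2.26 CPM in replicates 4 and 5. Over all genes tested, UV-treated replicates 4 and 5 were the most alike pair within any group (Pearson r 0.990 of log2 CPM, next highest 0.977). In deviations from the group means, both of these libraries correlated best with untreated replicate 5. Whether they are independent of each other was not tested, although the study describes independent experiments, and the tests count them as separate replicates. The part of the split in the values of the UV-treated group was not tested. For nodal1 the log2 fold change was 1.16 ± 0.53 for LiCl against untreated (SE, edgeR FDR 0.169), 1.31 ± 0.53 for UV against untreated (FDR 0.348) and -0.16 ± 0.52 for LiCl against UV (FDR 0.902).

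For nodal6 the counts were low, with 18, 16, 3, 13 and 16 reads in LiCl-treated, 70, 38, 42, 7 and 3 reads in UV-treated and 4, 4, 6, 20 and 0 reads in untreated libraries. The groups overlapped, and the highest 3 values belonged to UV-treated replicates 1 to 3. The log2 fold change was 2.30 ± 0.84 for UV against untreated (SE, edgeR FDR 0.273), 1.36 ± 0.85 for LiCl against untreated (FDR 0.340) and -0.94 ± 0.79 for LiCl against UV (FDR 0.507). Replicate 4 held 20 of the 34 untreated reads, and without it the values were 2.09 for LiCl (FDR 0.145) and 3.04 for UV (FDR 0.134) against untreated embryos. Its neighbours were at the limit of detection. The 5 libraries of each group held 7 reads of nodal5 in LiCl-treated, 14 in UV-treated and 7 in untreated embryos, and the 7 untreated reads all came from replicate 4. For nodal5.2 there were 2, 5 and 3 reads in LiCl-treated, UV-treated and untreated embryos, and no library exceeded 3 reads, the limit that a count of 0 allows. No difference in nodal5 or nodal5.2 was detectable at this depth, and such limits cover counting error only.

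The nodal3 genes are early targets of maternal β-catenin. The nodal3.1 counts were 29, 35, 29, 319 and 41 reads in LiCl-treated libraries. They were 14, 8, 11, 2 and 5 reads in UV-treated and 6, 3, 2, 44 and 0 reads in untreated libraries. Replicate 4 held 319 of the 453 reads of the LiCl-treated group and 44 of the 55 reads of the untreated group. All LiCl-treated libraries lay above all UV-treated ones, and above 4 of the 5 untreated ones, while UV-treated and untreated libraries overlapped. In CPM the groups averaged 7.33 ± 10.3 in LiCl-treated, 0.549 ± 0.307 in UV-treated and 0.611 ± 0.959 in untreated embryos (SD, n = 5 each).

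For nodal3.1 the log2 fold change was 3.49 ± 0.96 for LiCl against untreated (SE, edgeR FDR 0.0254) and 3.72 ± 0.98 for LiCl against UV (FDR 0.0174). Both depended on replicate 4. Without the LiCl-treated replicate 4 they were 2.05 (FDR 0.0846) and 2.29 (FDR 0.0574). Without untreated replicate 4 the values were 5.19 (FDR 0.00367) and 3.72 (FDR 0.00546), where LiCl against untreated passed the threshold, as did LiCl against UV. Without both libraries, a choice made after the values were seen, they were 3.79 (FDR 0.00185) and 2.30 (FDR 0.00579), both past the threshold. For UV against untreated the log2 fold change was -0.23 ± 0.99 (FDR 0.968), and 1.47 (FDR 0.514) without untreated replicate 4, so its direction turned on that library. The early dorsal gene sia1 and the organiser gene gsc were also highest in replicate 4 of the LiCl-treated group (37.3 and 569 CPM) and of the untreated group (3.31 and 222 CPM), with the low actc1 given above, and the part of this in the nodal3.1 values was not tested.

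The second copy, nodal3.2, had 5, 8, 6, 51 and 20 reads in LiCl-treated libraries. It had 2, 6, 1, 0 and 1 reads in UV-treated and 0, 3, 2, 8 and 0 reads in untreated libraries. It was too low to be tested with the other genes, and its highest LiCl-treated and untreated libraries were again replicate 4. With no filter on low counts its log2 fold change was 2.98 ± 0.89 for LiCl against untreated (SE, edgeR FDR 0.0450) and 3.19 ± 0.91 for LiCl against UV (FDR 0.0329). The unnamed model Xetrov72040882 in the same intron had 21, 37, 18, 246 and 41 reads in LiCl-treated, 12, 4, 17, 0 and 1 reads in UV-treated and 4, 0, 2, 49 and 1 reads in untreated libraries. It was the gene most like nodal3.1 across the 15 libraries (Pearson r 0.959 of log2 CPM, among 12839 genes), which shows a shared pattern over libraries that also share the high replicate 4. Whether the nodal3.1 model joins exons of separate copies, or shares reads with this model, could not be checked here.

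The comparison of nodal with nodal3.1 was made as a ratio of their counts within each library, which needs no library size. The log2 ratio of nodal3.1 to nodal (0.5 added to both counts) averaged -2.89 ± 2.02 in LiCl-treated, -4.03 ± 1.05 in UV-treated and -6.03 ± 2.21 in untreated libraries (SD, n = 5 each). Thus nodal had more reads than nodal3.1 in 14 of 15 libraries, and the exception was LiCl-treated replicate 4, at 0.62. The ratio was higher by 3.14 in LiCl-treated than in untreated libraries (exact two-sided permutation test over 252 divisions, p = 0.0397, adjusted over 3 comparisons 0.119). It was higher by 2.00 in UV-treated than in untreated libraries (exact permutation p = 0.119, adjusted 0.179) and by 1.14 in LiCl-treated than in UV-treated libraries (exact permutation p = 0.333). No difference passed after adjustment, and the smallest p that this test can give is 0.00794. Without untreated replicate 4 the first 2 differences were 3.96 and 2.81, each with an adjusted exact permutation p of 0.0238. The size of these differences rests on few reads, since 3 of the 5 untreated libraries had 3 or fewer reads of nodal3.1 and the ratio of untreated replicate 5, at -8.92, is set by the 0.5 added to a count of 0. With 0.1 or 1 added instead, the difference was 3.69 or 2.84 for LiCl against untreated and 2.47 or 1.79 for UV against untreated.

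**Figure D4:**
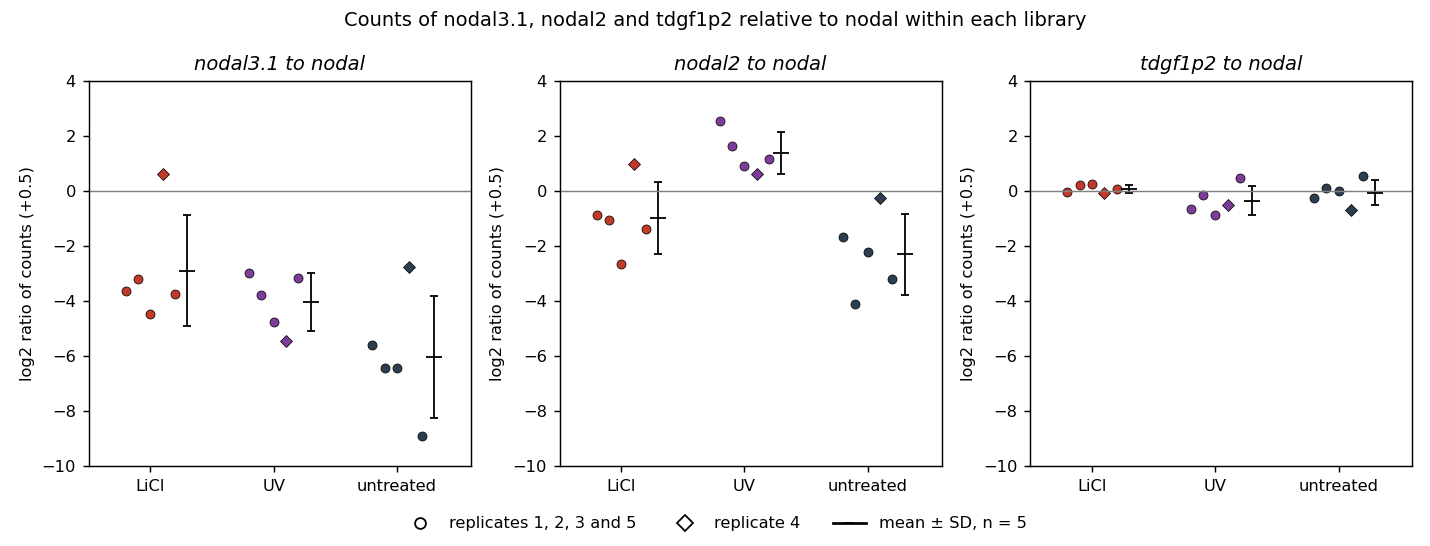
Log2 ratios of counts within each library (vertical axis, 0.5 added to each count) of nodal3.1, nodal2 and tdgf1p2 to nodal in LiCl-treated, UV-treated and untreated libraries. Points are libraries, diamonds mark replicate 4, and bars give the mean and SD of 5 libraries. The nodal2 to nodal ratio is above 0 in all 5 UV-treated libraries and below 0 in all 5 untreated ones, while tdgf1p2 to nodal lies between -0.86 and 0.55 in every library.

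In LiCl-treated embryos nodal and nodal3.1 thus both had their highest means, and in UV-treated embryos they differed, since nodal was lower than in untreated embryos by 1.03 on the log2 scale, though not past the threshold, while nodal3.1 was low in both groups, at 2 to 14 reads in UV-treated and 0 to 44 reads in untreated libraries. The replicate 4 libraries also set them apart. LiCl-treated replicate 4 had the most nodal3.1 and the least nodal of its group, and untreated replicate 4 likewise. Across the 15 libraries the correlation of log2 CPM between nodal and nodal3.1 was 0.37, given as a description over libraries that share treatments.

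The ratio of nodal2 to nodal, chosen after values were seen and so given without a test, had a median log2 value of -1.04 (range -2.66 to 1.00) in LiCl-treated, 1.16 (0.60 to 2.55) in UV-treated and -2.21 (-4.11 to -0.25) in untreated libraries. Reads of nodal2 outnumbered those of nodal in all UV-treated libraries and in none of the untreated ones. The ratio of tdgf1p2 to nodal averaged 0.08 ± 0.15 on the log2 scale in LiCl-treated, -0.34 ± 0.52 in UV-treated and -0.05 ± 0.45 in untreated libraries (SD, n = 5 each). Single libraries ran from -0.86 (UV-treated) to 0.55 (untreated). Over the 15 libraries, which share treatments and the 2 libraries that stand apart, the Pearson correlation of log2 CPM was 0.93 for nodal with tdgf1p2, 0.92 for nodal1 with nodal2 and 0.87 for nodal1 with nodal6, again as a description. It was -0.17 for nodal with nodal2 and -0.34 for tdgf1p2 with nodal2. Other pairs lay across these, with 0.85 for tdgf1 with tdgf1p3, 0.80 for gdf3 and 0.75 for lefty with nodal3.1, 0.75 for nodal with tdgf1p3 and 0.74 for lefty with nodal1.

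For lefty, the secreted antagonist, the LiCl-treated libraries had 156, 107, 112, 192 and 117 CPM. UV-treated libraries had 134, 94.4, 163, 68.6 and 73.0 CPM, and untreated libraries 86.8, 55.4, 74.9, 145 and 91.6 CPM. All groups overlapped, and within the LiCl-treated and untreated groups replicate 4 was the highest. The log2 fold change was 0.59 ± 0.28 for LiCl against untreated (SE, edgeR FDR 0.182), 0.23 ± 0.28 for UV against untreated (FDR 0.854) and 0.36 ± 0.28 for LiCl against UV (FDR 0.464). In 5 of 5 same-numbered pairs the LiCl-treated library was above the untreated one, a count for which no share over all genes was taken.

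For gdf3, a mesoderm-inducing ligand of the same family, the LiCl-treated libraries had 136, 177, 141, 136 and 96.7 CPM. UV-treated libraries had 107, 96.0, 98.8, 73.3 and 77.7 CPM, and untreated libraries 71.1, 97.3, 90.0, 110 and 67.9 CPM. In LiCl-treated embryos 4 of 5 libraries lay above all libraries of the other groups, and replicate 5 lay among them. The log2 fold change was 0.65 ± 0.17 for LiCl against untreated (SE, edgeR FDR 0.0198) and 0.60 ± 0.17 for LiCl against UV (FDR 0.0257), both under a fold change of 2. For UV against untreated it was 0.05 ± 0.17 (FDR 0.959), the smallest change of the 10 genes in that comparison.

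For LiCl against UV, 1 of 6 receptor genes, 1 of 8 genes of SMADs and their partners and 3 of 17 inhibitor genes passed the threshold, beside the 6.10% of all genes tested. Of the other ligands listed, 1 of 11 was tested, gdf1 (Vg1 in Xenopus laevis, a maternal ligand), with log2 fold changes of 0.56 (LiCl against untreated), 0.86 (UV against untreated) and -0.30 (LiCl against UV), none past the threshold. Of the receptors, 6 of 7 were tested, with a median log2 fold change of 0.24 for LiCl against UV beside 0.03 over all genes tested. The TGF-β receptor gene tgfbr2 was higher in LiCl than in UV (log2 fold change 1.89, edgeR FDR 0.00246), and no receptor gene passed against untreated embryos, where the medians were 0.58 for LiCl beside 0.01 over all genes tested and 0.35 for UV beside -0.02. The receptor gene acvr2a was higher in LiCl than in untreated embryos with a change under 2-fold (log2 fold change 0.88, edgeR FDR 0.00212). Of the SMADs and their partners, 8 of 12 were tested, and foxh1, which carries SMAD complexes to DNA, was lower in LiCl than in UV (-1.15, FDR 0.00726), the 1 gene of this list to pass in any comparison.

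Of the 19 inhibitors listed, 17 were tested. In LiCl-treated against untreated embryos smad7 (an inhibitory SMAD, log2 fold change -1.36, edgeR FDR 0.00346) and bambi (a pseudoreceptor, -1.47, FDR 0.00146) were lower, and the median of the list was 0.31 beside 0.01 over all genes tested. Both were also lower in LiCl than in UV, at -2.22 and -2.19. Follistatin (fst), which binds activin, was 4.35 ± 3.55 CPM in UV-treated and 56.2 ± 21.1 CPM in untreated embryos (SD, n = 5 each), a log2 fold change of -3.67 (FDR 0.00459). It was higher in LiCl than in UV by 4.13 (FDR 0.000123). The Nodal antagonist cer1 (cerberus) had log2 fold changes of 0.96 for LiCl against untreated and 1.41 for LiCl against UV (FDR 0.0763 and 0.0120), not past the threshold. None of the 7 proteases that process such ligands passed in any comparison.

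Of the 25 Nodal target genes listed, 23 were tested. The counts in this paragraph are of genes past the threshold, beside shares over all genes tested of 6.10% for LiCl against UV (3.55% higher in LiCl). The shares were 3.67% for LiCl against untreated and 0.0712% for UV against untreated. In LiCl-treated against untreated embryos gata4 (1.07, edgeR FDR 0.00174) and eomes (1.33, FDR 0.00665) passed as higher and none passed as lower. The median log2 fold change was 0.63 beside 0.01 over all genes tested. With changes under 2-fold, foxa4 was higher (0.87, FDR 0.000512) and t was lower (-0.66, FDR 0.000976) in LiCl than in untreated embryos. In LiCl against UV 6 were higher, led by gsc (4.101), chrd (3.78) and lhx1 (2.02), and t (brachyury, -1.13) was lower. In UV against untreated none passed, with a median of -0.07 beside -0.02. Of the endoderm genes, mixer averaged 732, 721 and 381 CPM in LiCl-treated, UV-treated and untreated embryos and mix1 271, 315 and 117 CPM, with no comparison past the threshold. The β-catenin target list overlaps this one in gsc, chrd, cer1, lhx1 and foxa4. Of its 14 genes tested, 12 were higher in LiCl than in UV, led by frzb2 (5.07), sia1 (4.31) and fst (4.13), and sia1 (3.89), frzb (1.92) and dkk1 (1.72) were higher in LiCl than in untreated embryos. Of the 13 ventral genes, 11 were lower in LiCl than in UV, led by evx1 (-4.24), msx1 (-4.22) and msgn1 (-4.05), and 7 were lower in LiCl than in untreated embryos, led by msgn1 (-4.08), evx1 (-3.42) and msx1 (-3.10).

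**Figure D5:**
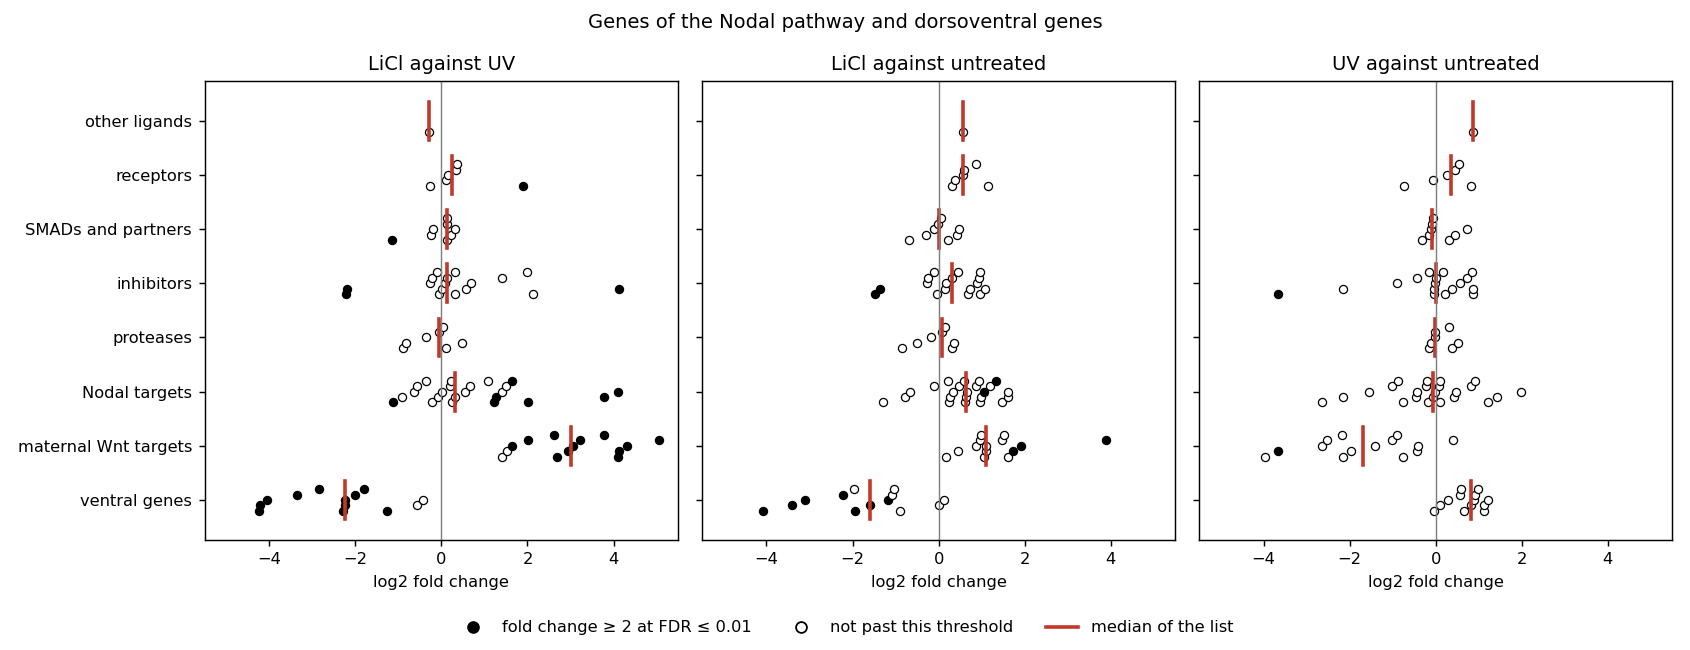
Log2 fold changes (horizontal axis) of the tested genes of 8 lists, in rows, for LiCl against UV, LiCl against untreated and UV against untreated. Each point is a gene, filled where it passed a fold change of 2 at an FDR of 0.01, and the red line is the median of the list. In LiCl against UV the maternal Wnt targets lie to the right (median 3.01) and the ventral genes to the left (median -2.25), while the medians of receptors (0.24), SMADs and partners (0.13) and proteases (-0.06) lie near 0, with tgfbr2 (1.89) and foxh1 (-1.15) among them past the threshold.

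The genes whose log2 CPM followed nodal most closely over the 15 libraries were Xetrov72043560 (Pearson r 0.966), lhx1 (0.963), tmem150b (0.960), pkdcc.1 (0.955) and kcnk6 (0.944), among 12839 genes, as a description. Of these lhx1 encodes an organiser transcription factor and pkdcc.1 a secreted kinase. After the unnamed model in its intron, the genes most like nodal3.1 were tnks2 (0.951), tubgcp3 (0.950), chd3 (0.944) and Xetrov72027970 (0.935). Without the libraries numbered 4, over 12 libraries, r with nodal3.1 was 0.958 for chd3, the highest of these 5, and 0.921 for Xetrov72040882. The genes most like nodal2, a choice made after values were seen, were mix1 (0.934), bix1.2 (0.929), lpar2 (0.917), nodal1 (0.916) and the unnamed model Xetrov72027203 (0.897), where mix1 and bix1.2 are homeobox genes of the endoderm and mesendoderm.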

How the data were processed

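Poly(A) RNA of 15 libraries was profiled by RNA-seq (TruSeq RNA version 2, which does not mark strand). The authors aligned paired reads with TopHat2 (the labels name versions 2.0.10 and 2.1.1) and counted them per gene with HTSeq in intersection-nonempty mode, and the deposited values are raw counts, not normalised. The gene models that the authors deposited hold positions of another kind (exon starts and ends on assembly v7.1), used here for lengths and places. The strand setting and the handling of reads that match several genes are not given in the sources used here.

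The tests ran in R 4.3.3 and edgeR 4.0.16, where filterByExpr kept 14041 of 28206 genes, libraries were scaled by TMM, and a robust quasi-likelihood model with group as the only term was fitted to all 15 libraries. Benjamini-Hochberg adjustment covered every gene tested. Genes were called at the threshold of the study, from 2-fold upward with an FDR no higher than 0.01, but the study used DESeq2. At this threshold edgeR called 515 genes for LiCl against untreated, 10 for UV against untreated and 857 for LiCl against UV. In the same order DESeq2 called 966, 122 and 1331 genes. Each SE is the absolute log2 fold change over the root of its F statistic. The study describes independent experiments, and whether same-numbered libraries share a clutch is not stated. The pairing was checked by the correlation of same-numbered deviations from the group means, which was 0.338 to 0.731 for LiCl-treated with untreated libraries. LiCl-treated replicate 3 correlated best with untreated replicate 2, so this pairing is not certain. The same-numbered correlation was above 0.1 in 4 of 5 pairs of UV-treated with untreated and of LiCl- with UV-treated libraries. For the pairs numbered 4 it was -0.254 and -0.120, and UV-treated replicate 1 correlated best with untreated replicate 4, so these comparisons were not taken as paired. The ratio of nodal3.1 to nodal was tested by an exact permutation test in Python 3.11.15 with scipy 1.17.1. Alternatives were RLE scaling, DESeq2 1.42.0, other filters and thresholds, a replicate block, glmTreat and leaving out each library. The scripts were tested on simulated data. Columns of counts were assigned by sample title, and 0 were left out. Counting limits use 3 reads and cover counting error only, since reads carry no molecular identifiers. Gene names were matched to RefSeq symbols and synonyms (assembly UCB_Xtro_10.0), without its coordinates. Correlations were taken on log2 CPM (prior count 2), over genes averaging 1 CPM or more.

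Named genes are all 13 members, the genes of the pathway lists past the threshold (at most 3 in each direction), and the 5 genes most like nodal and nodal3.1. Genes named beyond these (gdf1, cer1, mixer, mix1, actc1, and the genes most like nodal2) were chosen after their values were seen. The members and lists were chosen with earlier results of these data known.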

Additional observations from a re-analysis of the deposited data

Results flagged for a closer look

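Of 33 groups of 5 libraries examined, 4 held a library whose gap to its nearest neighbour exceeded 0.710 of the group's range (Dixon's 95% critical value). Chance gives this mark in about 1 in 20 groups of normally distributed values, which the CPM of low-count genes need not be. The groups are also not independent, since they share libraries and the ratio uses the same nodal3.1 counts. LiCl-treated replicate 4 had 25.7 CPM of nodal3.1, with a gap of 0.912 of the range, 32.1 CPM of tdgf1p3, with a gap of 0.909, and a log2 ratio of nodal3.1 to nodal of 0.62, with a gap of 0.750. Untreated replicate 4 had 2.31 CPM of nodal3.1, with a gap of 0.844. Both libraries also had the lowest actc1 of their groups (7.57 and 7.72 CPM) and the highest sia1 (37.3 and 3.31 CPM), and the part of this in the 4 values was not tested.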

How the results depend on the processing

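The 3 calls for LiCl against UV (nodal, tdgf1p2 and tdgf1p3) held in all 15 fits that left out 1 library, under RLE scaling and under both other filters. Against 6.10% of all genes tested in the reported fit, DESeq2 called 5 of the members (9.48% of all genes), as did an FDR limit of 0.05 (10.2%). The fit with a replicate block over 15 libraries called 4, adding tdgf1 (7.74% of all genes), that over 10 libraries called 2, without tdgf1p3 (4.52%), and glmTreat called 2, without nodal (1.76%). For LiCl against untreated, DESeq2, the FDR limit of 0.05 and the replicate block over 15 or 10 libraries each called 2 of the members (nodal3.1 and tdgf1p3), beside 6.88%, 7.56%, 5.26% and 6.69% of all genes, and leaving out 1 library gave 0 to 1. For UV against untreated, DESeq2, the FDR limit of 0.05 and the replicate block over 15 libraries each called 1 (tdgf1p2, FDR 0.00435 with the block), beside 0.869%, 0.484% and 0.328% of all genes, and in the fits of 10 libraries nodal3.1 and nodal6 fell below the filter. UV-treated replicate 4 did not pair with its number, and UV-treated replicate 1 was most like untreated replicate 4, so the block is not shown to fit the UV comparisons. Settings added after the data were seen gave, without replicate 4 of the LiCl-treated and untreated groups, 1 for LiCl against untreated (5.25% of all genes) and 1 for UV against untreated (0.913%), and, with the block and all libraries numbered 4 left out, 3 (nodal2, nodal3.1 and tdgf1p3, 9.08%) and 2 (nodal2 and tdgf1p2, 1.69%).

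Signs turned for 3 results. For gdf3 in UV against untreated, leaving out 1 library gave log2 fold changes of -0.025 to 0.151 (below 0 without UV-treated replicate 1, at -0.014, or untreated replicate 1, at -0.012, or replicate 5). For nodal1 in LiCl against UV the range was -0.54 to 0.13 (above 0 without LiCl-treated replicate 3 or UV-treated replicate 1 or 3). For nodal3.1 in UV against untreated it was -0.54 to 1.47 (above 0 without UV-treated or untreated replicate 4, at 0.03 and 1.47), and 0.78 with the block, 1.49 without replicate 4 of the LiCl-treated and untreated groups (where gdf3 was at 0.17), and 1.81 with the block and no library numbered 4. Leaving out 1 library moved the difference in the nodal3.1 to nodal ratio between 2.26 and 3.96 for LiCl against untreated and between 1.27 and 2.81 for UV against untreated. The ratio of nodal3.1 to nodal passed for LiCl and for UV against untreated without untreated replicate 4 (3.96 and 2.81, exact permutation, adjusted p 0.0238 each) and without replicate 4 of both groups (3.08 and 2.81, exact permutation, adjusted p 0.0429 each). With replicate numbers paired, a sign-flip test of 5 pairs cannot give an exact p under 0.0625. The causes were not tested. Depth limits nodal3.2, nodal5, nodal5.2 and nodal6, which had few reads in most libraries.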
